A study of Mus musculus with 4 samples.

Results

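The 9 genes described here are components and targets of the Nodal pathway and transcription factors of the mesendoderm, read from a table of 26301 mouse genes. They were chosen by symbol: Nodal, Lefty1, Lefty2, Tdgf1, Smad7, Cer1, T, Eomes and Mixl1, and all 9 had a row in the table. These genes and the lists set beside them below were chosen with earlier results of these data known. RNA was sequenced from 4 libraries of mouse embryonic stem cells (ESCs), 2 biological replicates of the wild type line N6 (WT) and 2 of the line N8, in which the gene encoding the repressor REST is disrupted (Rest-/-). Both lines grew in serum with Leukemia Inhibitory Factor on feeder layers of irradiated embryonic fibroblasts and were passaged on gelatin to remove the feeders before RNA was extracted. Each genotype is represented by 1 line, so that genotype and line cannot be told apart.

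Nodal is a secreted ligand of the TGF-β superfamily. It binds type I and type II activin receptors together with the membrane-anchored co-receptor Cripto, which Tdgf1 encodes, and the signal reaches DNA through phosphorylated SMAD2 and SMAD3, bound by SMAD4 and the DNA-binding partner FOXH1. Lefty1 and Lefty2 are secreted antagonists that the pathway itself induces, Cer1 encodes a secreted antagonist of Nodal and BMP ligands, and Smad7 encodes an inhibitory SMAD that blocks the activated receptors. In the embryo the pathway acts with Wnt signals to form the primitive streak, where T (Brachyury), Eomes and Mixl1 are switched on, and undifferentiated ESCs keep a part of the pathway active.

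T was the member that differed most between the genotypes. The 250 bases before its start site are shown because the RNA values below turn on this gene, with capitals marking a match to the binding motif of TCF/LEF, the DNA-binding partners of β-catenin in the Wnt pathway. The same window of Nodal is shown beside it, with the same mark, because Nodal names the pathway and its RNA differed little between the genotypes. The sequences are those of RefSeq (GRCm38.p6), each matched to 1 place in mm9, at chr17:8627038-8627287 on the plus strand for T and at chr10:60880470-60880719 on the plus strand for Nodal.
T: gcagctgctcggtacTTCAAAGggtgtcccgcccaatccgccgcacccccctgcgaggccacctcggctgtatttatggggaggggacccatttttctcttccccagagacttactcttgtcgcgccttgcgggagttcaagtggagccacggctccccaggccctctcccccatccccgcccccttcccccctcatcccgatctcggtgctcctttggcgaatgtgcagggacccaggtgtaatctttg
Nodal: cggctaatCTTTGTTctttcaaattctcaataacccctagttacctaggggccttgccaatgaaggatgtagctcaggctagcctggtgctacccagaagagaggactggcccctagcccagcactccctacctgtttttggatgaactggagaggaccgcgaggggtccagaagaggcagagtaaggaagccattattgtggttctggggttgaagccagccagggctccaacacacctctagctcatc

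The TCF/LEF motif was searched on both strands as CTTTG followed by AA, AT, TA or TT. T held it 229 to 235 bases before the start site and Nodal held it 236 to 242 bases before, and 14.8% of the 32851 windows of this kind in the table of promoters held it. Windows were read for 5 members, T, Nodal, Tdgf1, Cer1 and Eomes. The FOXH1 motif, AATNCACA, was in none of these 5 windows and in 3.18% of all windows. The SMAD box, CAGAC, was in those of Tdgf1 and Cer1 and in 42.2% of all windows. The T-box motif, TCACACC, was in none of the 5 and in 3.33% of all windows. These matches describe the letters of the windows and not binding.

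Because REST binds the RE1 motif, the distance of each member from a full match was measured in mm9. A 15-base core of the motif with 12 informative positions, searched on both strands, had a full match at 1304 places. No member had a match within 20 kb of an annotated start site, whereas 4.51% of the 12668 tested genes with a position did. Among the members the closest match was that of Nodal, 325502 bp from its start site, followed by that of T at 363889 bp, and the farthest was that of Lefty1 at 1931837 bp. The paper's REST-bound regions also held partial motifs, which this search leaves out. The nearest full match to Rest lay 21909 bp from a start site, outside the window, although the paper states that this gene holds a REST-binding site.

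Depth ranged from 22293966 counts on genes in Rest-/- replicate 2 to 30953863 in WT replicate 1. Counts were scaled to counts in every 1000000 of the library (CPM) with edgeR's TMM factors, and 15444 genes passed the filter on low counts. Rest itself was measured at 255 and 233 CPM in WT and 164 and 176 CPM in Rest-/- libraries (log2 fold change -0.52, SE 0.13, adjusted p = 0.526 in edgeR's quasi-likelihood test), so RNA from the gene was still counted in the line labelled Rest-/-, and counts over the whole gene do not show whether its disrupted part was absent. All 10 pluripotency markers were detected, with summed levels of 4770 and 4681 CPM in WT and of 3919 and 4190 CPM in Rest-/- libraries. Of these 10, Nanog, Zfp42, Klf2 and Klf4 were lower in both Rest-/- libraries than in both WT libraries (15.4% of all tested genes were) and had an unadjusted p under 0.05 (6.71% of all tested genes in either direction), with log2 fold changes of -0.46, -1.36, -0.84 and -0.44. None of the 10 was called in edgeR's quasi-likelihood test and 2 were called lower in the exact test with tag-wise dispersion, which called 1.79% of all tested genes in either direction. The libraries also differed by replicate number, since 19.5% of the tested genes moved by 0.5 or more on the log2 scale in the same direction from replicate 1 to replicate 2 of both genotypes. Summed feeder fibroblast markers (10 genes) were at 29.7 and 19.6 CPM in WT replicates 1 and 2 and at 103 and 19.9 CPM in Rest-/- replicates 1 and 2, and Lum was at 0 counts throughout. Primitive endoderm markers summed to 129 and 227 CPM in WT and to 283 and 349 CPM in Rest-/- libraries, and both Rest-/- libraries were above both WT libraries for 7 of the 10, beside 16.5% of all tested genes. Their median log2 fold change was 0.79, with none called in the quasi-likelihood test, 4 higher at an unadjusted p under 0.05 (3.85% of all tested genes) and 2 called higher in the exact test with tag-wise dispersion (1.79% of all tested genes in either direction).

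Across the members, the ligand, its co-receptor and the tested inhibitors differed by at most 0.28 on the log2 scale with intervals that included 0, T was 12.7-fold higher in Rest-/- ESCs, and Cer1 was not detected above the counting floor. Of the 9 members, 8 passed the filter on low counts. In edgeR's quasi-likelihood test with Benjamini-Hochberg adjustment over all 15444 genes, none of the 8 passed a threshold of 0.05, and 1 member, T, had an unadjusted p under 0.05. The same test called 9 genes in all, or 0.0583% of those tested, and 6.71% had an unadjusted p under 0.05. In edgeR's exact test with tag-wise dispersion, 1 of the 8 members was called, T, against 1.79% of all tested genes (2.23% with common dispersion), and DESeq2 called 1 member, T again, against 1.54%. The median log2 fold change of the 8 members was 0.0028, beside -0.0047 for all tested genes, and 4 of the 8 were positive, beside 49.2% of all tested genes. T and Mixl1 were higher in both Rest-/- libraries than in both WT libraries and Lefty2 was lower, where 16.5% of all tested genes were higher and 15.4% lower in this way.

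**Figure D1:**
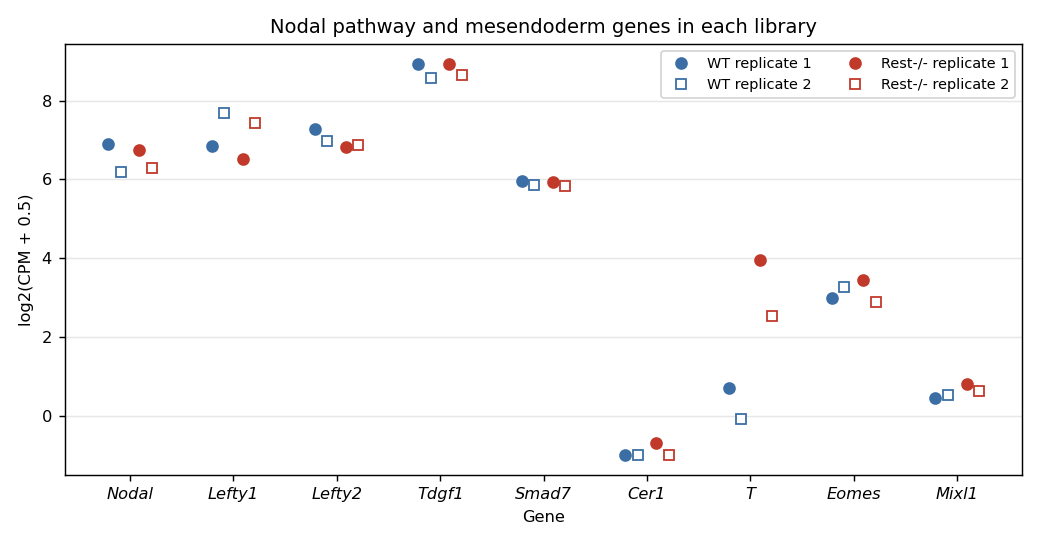
Levels of the 9 members as log2(CPM + 0.5), with 1 point per library (blue, WT; red, Rest-/-; filled circles, replicate 1; open squares, replicate 2). The 2 red points of T lie above its 2 blue points, Cer1 sits at the bottom of the scale, and the points of the other members lie close together or split by replicate number.

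T encodes the T-box factor Brachyury of the primitive streak and the notochord, and lies on chromosome 17 of mm9 from 8627288 to 8635361 on the plus strand. WT libraries held 35 and 12 counts of T and Rest-/- libraries 386 and 118, or 1.13 and 0.448 CPM in WT and 14.9 and 5.33 CPM in Rest-/- ESCs. Every Rest-/- library was above every WT library, and in each genotype replicate 1 was above replicate 2. The log2 fold change was 3.66 (standard error, SE, 0.76, 95% interval 1.66 to 5.67), a 12.7-fold difference. In edgeR's quasi-likelihood test its p was 0.00605 before adjustment and 0.405 after it. In the exact test with tag-wise dispersion, T rose with an adjusted p of 0.000703, and in that with common dispersion, the other estimate the study's methods name, the adjusted p was 7.97e-12. In DESeq2 it was 1.38e-05.

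Set side by side within a replicate number, T was 13.2-fold higher in Rest-/- replicate 1 than in WT replicate 1 and 11.9-fold higher in Rest-/- replicate 2 than in WT replicate 2. The summed feeder markers were at 29.7 and 103 CPM in the replicate 1 libraries of WT and Rest-/- ESCs and at 19.6 and 19.9 CPM in the replicate 2 libraries. With 1 library left out, the lone library of its genotype being assumed to vary like the other genotype, the call depended on which one. Without Rest-/- replicate 1 the log2 fold change of T was 2.74 (adjusted p = 0.241 in edgeR's quasi-likelihood test), and without WT replicate 1 it was 4.48 (adjusted p = 0.0449). Without WT replicate 2 it was 3.16 (adjusted p = 0.0816) and without Rest-/- replicate 2 it was 4.22 (adjusted p = 0.0150). The part of the feeder markers and of the primitive endoderm markers in this difference was not tested. More cells that express T and more T RNA per cell cannot be told apart in bulk RNA, and the same holds for every gene below.

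The T-box gene Eomes and the homeobox gene Mixl1, which mark the streak together with T in the embryo, had no difference of that size. Eomes, on chromosome 9 from 118387330 to 118395250 on the plus strand, had counts of 229 and 243 in WT against 267 and 152 in Rest-/- libraries, or 7.40 and 9.07 CPM and 10.3 and 6.86 CPM. The Rest-/- values lay on both sides of the WT values. Its log2 fold change was 0.064 (SE 0.32, 95% interval -0.78 to 0.91). Eomes is also a factor of the trophoblast, whose list of 8 markers includes it. The list summed to 185 and 468 CPM in WT and to 277 and 588 CPM in Rest-/- libraries, split by replicate number. Krt8, Krt18 and Tfap2c made up most of this sum. Of the 7 tested markers 1, Cdx2, was higher without overlap, at 0.872 and 0.896 CPM in WT and 3.79 and 1.85 CPM in Rest-/- libraries. Gata3 was the 1 lower without overlap, beside 16.5% higher and 15.4% lower of all tested genes.

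Mixl1 lies on chromosome 1 from 182623174 to 182627165 on the minus strand. Its counts were 27 and 25 in WT against 32 and 23 in Rest-/- libraries, or 0.872 and 0.933 CPM and 1.24 and 1.04 CPM. The genotypes did not overlap, but the counts were low and the log2 fold change of 0.34 (SE 0.37) had a 95% interval from -0.65 to 1.32. The upper ends of the intervals of Eomes and Mixl1 were below the lower end of that of T, and this difference between genes was not itself tested.

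**Figure D2:**
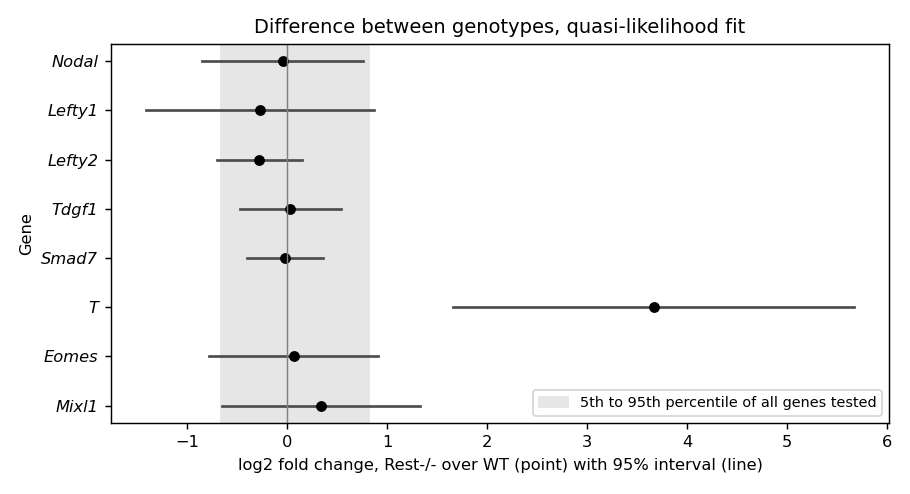
Log2 fold change of Rest-/- over WT ESCs for the 8 tested members (points) with 95% intervals (lines), beside the range of the central 90% of all tested genes (grey band, from -0.67 to 0.82). T lies at 3.66 with an interval that starts at 1.66, and the intervals of the other 7 members all include 0.

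Nodal, the ligand, on chromosome 10 from 60880720 to 60888086 on the plus strand, had counts of 3664 and 1938 in WT against 2742 and 1734 in Rest-/- libraries. These were 118 and 72.4 CPM in WT and 106 and 78.3 CPM in Rest-/- ESCs. Both Rest-/- values lay between the WT values. The log2 fold change was -0.049 (SE 0.30, 95% interval -0.85 to 0.76), so that a change of up to about 0.8 in either direction was within the interval.

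Tdgf1, the co-receptor gene, on chromosome 9 from 110842114 to 110848662 on the minus strand, was the most abundant member. It was at 489 and 383 CPM in WT and at 490 and 399 CPM in Rest-/- ESCs, from 15151 and 10261 counts and from 12671 and 8849 counts. The values of the 2 genotypes were interleaved by replicate number, and the log2 fold change was 0.029 (SE 0.19, 95% interval -0.48 to 0.53). Of the 50-base stretches in its exons, 24.2% occur at 1 other place in mm9, so reads from there could have been counted here or left out.

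Smad7, the intracellular inhibitor, on chromosome 18 from 75527183 to 75555589 on the plus strand, varied little. Its levels were 61.9 and 57.2 CPM in WT and 61.0 and 56.3 CPM in Rest-/- ESCs. The log2 fold change was -0.023 (SE 0.14), with a 95% interval from -0.41 to 0.36. BMP signals also induce Smad7, and the BMP arm is described below.

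The secreted inhibitors Lefty2 and Lefty1 lie next to each other on the plus strand of chromosome 1, Lefty2 from 182823239 to 182829234 and Lefty1 from 182865153 to 182868531. Lefty2 counts were 4789 and 3344 in WT against 2928 and 2594 in Rest-/- libraries, or 155 and 125 CPM and 113 and 117 CPM. Both Rest-/- libraries were below both WT libraries. The log2 fold change of -0.28 (SE 0.16, 95% interval -0.70 to 0.15) did not pass the quasi-likelihood test, with a p of 0.149 before adjustment and 0.982 after it.

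Lefty1 counts were 3525 and 5514 in WT against 2370 and 3831 in Rest-/- libraries, or 114 and 206 CPM and 91.7 and 173 CPM. The genotypes overlapped, and in each genotype replicate 2 was the higher. Within a replicate number Rest-/- was the lower, with differences of -0.31 in replicate 1 and -0.25 in replicate 2 on the log2(CPM + 0.5) scale. The log2 fold change was -0.27 (SE 0.43, 95% interval -1.41 to 0.87), and with 1 library left out it was 0.22 without WT replicate 2, 0.12 without Rest-/- replicate 1, -0.81 without Rest-/- replicate 2 and -0.64 without WT replicate 1. The coding sequences of the 2 genes, each of 1107 bases, are identical at 91.9% of positions, and 19.4% of the 50-base stretches of Lefty1 and 15.4% of those of Lefty2 occur elsewhere in mm9, so the split of reads between the pair is uncertain. Their counts summed to 8314 and 8858 in WT and to 5298 and 6425 in Rest-/- libraries, a log2 fold change of -0.28 (SE 0.22, adjusted p = 1.00 in edgeR's quasi-likelihood test). This sum was chosen after seeing the data.

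Cer1, on chromosome 4 from 82527655 to 82531052 on the minus strand, had 0 counts in both WT libraries and 3 and 0 counts in the Rest-/- libraries. It did not pass the filter and was not tested. A count of 0 allows up to 3 counts, which is 0.0969 and 0.112 CPM in the WT libraries and 0.135 CPM in Rest-/- replicate 2, so that levels up to these limits are compatible with the counts of 0. No other gene overlaps any of the 9 members in the mm9 annotation.

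Per length, as CPM per kilobase of annotated exon (RPKM, mean ± SD, n = 2), the order of the levels in WT was Tdgf1 at 227 ± 39.0, Lefty1 at 90.9 ± 37.0, Lefty2 at 53.5 ± 8.08, Nodal at 45.5 ± 15.5, Smad7 at 13.2 ± 0.728, Eomes at 1.98 ± 0.285, Mixl1 at 0.394 ± 0.0189 and T at 0.341 ± 0.209. Lefty1, Lefty2 and Nodal were neighbours within their spread, and so were Mixl1 and T. In Rest-/- ESCs the order on the same scale was Tdgf1 at 231 ± 33.4, Lefty1 at 75.3 ± 32.7, Lefty2 at 44.1 ± 1.02, Nodal at 44.0 ± 9.40, Smad7 at 13.0 ± 0.729, T at 4.38 ± 2.94, Eomes at 2.07 ± 0.591 and Mixl1 at 0.496 ± 0.0617. T had passed Mixl1 and Eomes in this order, although T and Eomes were within the spread of each other in Rest-/- ESCs.

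Several members moved with the replicate number in both genotypes. Lefty1 was higher in replicate 2 than in replicate 1 by 0.85 in WT and by 0.91 in Rest-/- ESCs on the log2(CPM + 0.5) scale, and 1.14% of tested genes moved up by at least as much in both. T moved the other way, by -0.78 in WT and by -1.41 in Rest-/- ESCs (1.30% of tested genes moved down by at least as much in both). Nodal also moved down, by -0.71 and -0.44, and Tdgf1 by -0.35 and -0.30, and such moves were more common, at 9.52% and 19.3% of tested genes. As a result the ratio of Lefty1 to Nodal in CPM was 0.962 and 0.864 in replicate 1 of WT and Rest-/- ESCs and 2.85 and 2.21 in replicate 2. For Lefty1 and Nodal the distance between replicate numbers was thus larger than that between genotypes, and it enters the standard errors given above. What the replicate numbers stand for beyond biological replicates is not given in the sources used here.

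**Figure D3:**
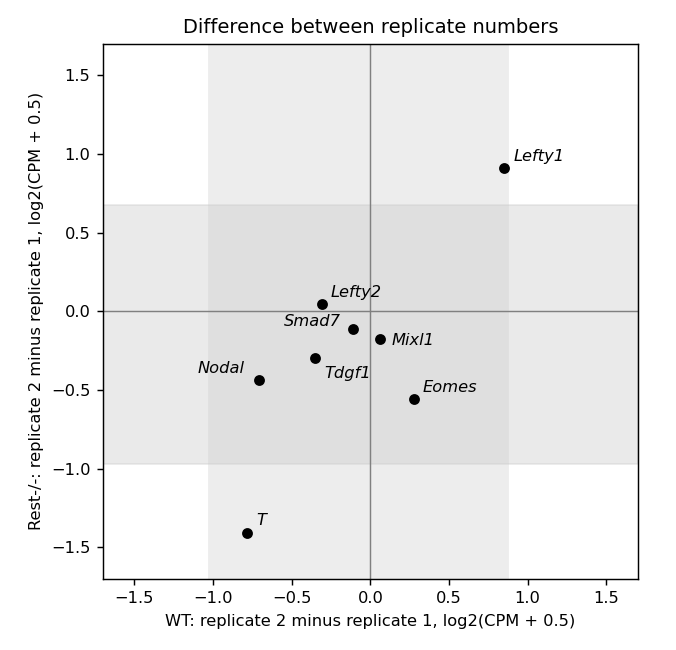
Difference between replicate 2 and replicate 1 on the log2(CPM + 0.5) scale in WT (horizontal axis) and in Rest-/- ESCs (vertical axis) for the 8 tested members, with grey bands for the central 90% of all tested genes on each axis. Lefty1 lies at the upper right, T, Nodal and Tdgf1 lie at the lower left, and Smad7 and Mixl1 lie near the centre.

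Likeness of pattern was measured as the root mean square difference of log2(CPM + 0.5) over the 4 libraries after each gene was centred on its own mean, for members that spanned at least 1 on that scale, which were Lefty1 and T. The nearest to T was Tchh, which encodes the hair follicle protein trichohyalin, at a difference of 0.23. Tchh was at 1.87 and 0.448 CPM in WT and at 14.4 and 6.28 CPM in Rest-/- libraries. Next were 6330407J23Rik at 0.37 and Ptprn, which encodes a protein of dense-core vesicles, at 0.42. Tchh was the 1 gene within 0.25 of T, whereas 1046 genes were within 0.25 of Lefty1, among which Rassf8 (0.019), Rasal1 (0.022) and Bst2 (0.034) were the closest, so that little sets the pattern of Lefty1 apart.

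The other genes of the Nodal pathway were read from a list of 28, of which Gdf1 and Acvr1c had 3 counts or fewer in every library and 26 were tested. None of the 26 was called in edgeR's quasi-likelihood test, and 1 of them, Skil, had an unadjusted p under 0.05, beside 6.71% of all tested genes. Their median log2 fold change was 0.028, and 3 were higher and 2 lower without overlap between the genotypes, beside 16.5% and 15.4% of all tested genes. Those 5 genes were Fst, Skil, Inhbb, Cfc1 and Gdf3.

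Fst, which encodes the activin antagonist follistatin, was at 3.33 and 1.01 CPM in WT and at 10.5 and 3.52 CPM in Rest-/- libraries, a log2 fold change of 1.69 (SE 0.81, adjusted p = 0.888 in edgeR's quasi-likelihood test). Skil, which encodes the SMAD co-repressor SnoN and is itself induced by the pathway, was at 130.1 and 126 CPM in WT and at 199 and 162 CPM in Rest-/- libraries. Its log2 fold change was 0.50 (SE 0.16, adjusted p = 0.667, both from edgeR's quasi-likelihood test). Inhbb, the activin B subunit gene, had a log2 fold change of 0.37 (SE 0.22). On the lower side, Cfc1, the second co-receptor gene, was at 1.13 and 1.08 CPM in WT and at 0.735 and 0.767 CPM in Rest-/- libraries, and the ligand gene Gdf3 had a log2 fold change of -0.11. None of the transducers or receptors passed the test, with log2 fold changes of -0.039 for the transducer gene Smad2, -0.22 for Smad3, 0.16 for Smad4 and 0.020 for Foxh1, and the receptor genes Acvr1b, Acvr2a and Acvr2b had -0.039, -0.14 and 0.0022.

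The other genes of the primitive streak and mesendoderm had higher levels in Rest-/- ESCs more often than lower ones. Of the 22 in the list, Gsc, Lhx1, Mesp1, Msgn1 and Rspo3 did not pass the filter and 17 were tested. No gene was called in edgeR's quasi-likelihood test, 5 had an unadjusted p under 0.05, all with higher levels in Rest-/- ESCs (3.85% of all tested genes were higher with such a p), and 2, Sp5 and Wnt3, were called in the exact test with tag-wise dispersion (1.79% of all tested genes were). Among the 17 genes 8 were higher and 2 lower without overlap, beside 16.5% and 15.4% of all tested genes. The list was chosen with earlier results of these data known, so these counts do not test an excess over the shares. The median log2 fold change was 0.74, and the medians of the differences of log2(CPM + 0.5) were 0.60 between the replicate 1 libraries and 0.49 between the replicate 2 libraries. Sox17 and Foxa2 of this list are also among the primitive endoderm markers, whose median was 0.79 with 10 of 10 positive. The 8 tested feeder markers had a median of 1.79, with 1.76 between the replicate 1 libraries and 0.086 between the replicate 2 libraries, and the pluripotency markers had one of -0.21. The part of these markers in the differences of the streak genes was not tested.

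**Figure D4:**
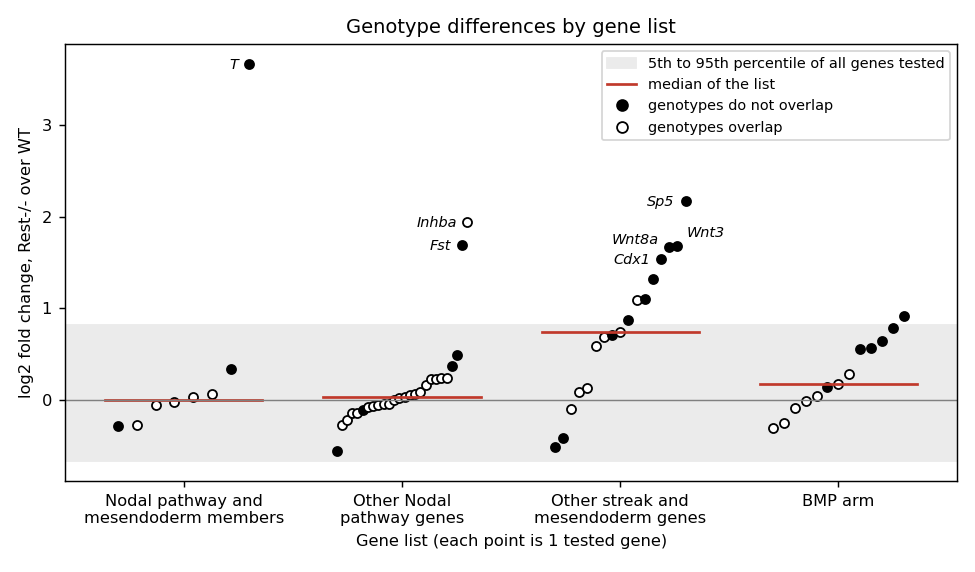
Log2 fold change of Rest-/- over WT ESCs for each tested gene of 4 lists (filled points, the 2 genotypes do not overlap; open points, they overlap), with the median of each list in red and the central 90% of all tested genes in grey. The median of the streak and mesendoderm list is 0.74, the value of Evx1, which had 3 to 28 counts. Those of the members, the other Nodal pathway genes and the BMP arm are 0.0028, 0.028 and 0.18.

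Sp5, a zinc finger factor that is a target of Wnt signals, was at 1.55 and 0.933 CPM in WT and at 6.35 and 4.92 CPM in Rest-/- libraries. Its log2 fold change of 2.17 (SE 0.40) had adjusted p-values of 0.332 in edgeR's quasi-likelihood test and of 0.00170 in the exact test with tag-wise dispersion. Wnt3, the ligand that is needed to form the streak, was at 2.84 and 3.14 CPM in WT and at 11.8 and 7.45 CPM in Rest-/- libraries, a log2 fold change of 1.68 (SE 0.34). Its adjusted p was 0.402 in edgeR's quasi-likelihood test and 0.0137 in the exact test with tag-wise dispersion. For both genes the 2 Rest-/- libraries were above the 2 WT libraries, as for T.

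Wnt8a, another ligand of the streak, was at 2.58 and 0.635 CPM in WT and at 7.24 and 3.02 CPM in Rest-/- libraries, a log2 fold change of 1.66 (SE 0.81), and did not pass either test. The other genes with an unadjusted p under 0.05, named after their values were seen, were the caudal homeobox gene Cdx1, the BMP antagonist gene Chrd and the Wnt feedback gene Axin2. Cdx1 was at 3.29 and 1.57 CPM in WT and at 7.39 and 6.77 CPM in Rest-/- libraries, Chrd at 2.87 and 2.69 and at 6.66 and 5.33 CPM, and Axin2 at 9.66 and 8.96 and at 16.4 and 14.04 CPM. Their log2 fold changes were 1.54, 1.11 and 0.71. On the lower side were Wnt3a, with a log2 fold change of -0.52 (SE 0.34), and the T-box gene Tbx6, with one of -0.41 (SE 0.38). Of the genes in this list, the other Nodal pathway genes and the BMP arm, Wnt3a, at 13690 bp, and Acvr2b, at 13291 bp, had a full RE1 match within 20 kb of a start site.

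**Figure D5:**
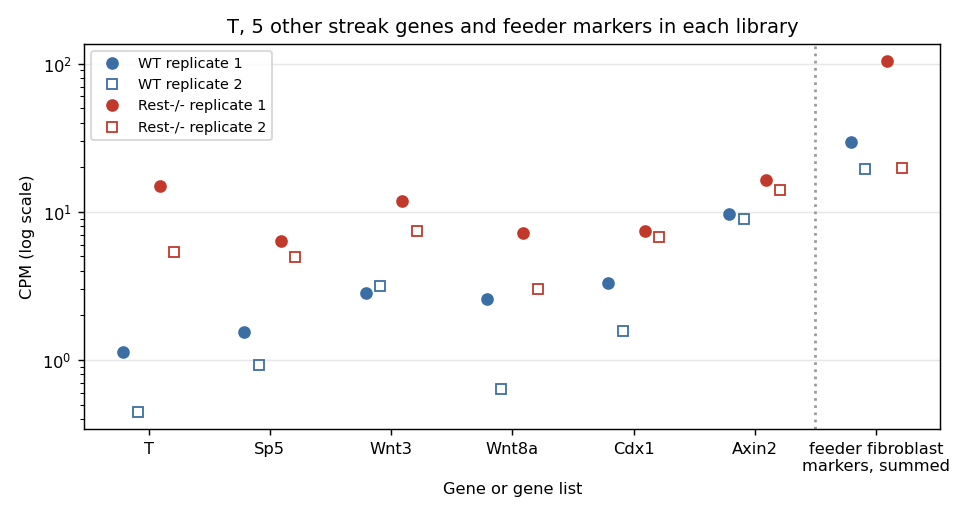
CPM on a log scale of T and 5 other streak genes in each library (blue, WT; red, Rest-/-; filled circles, replicate 1; open squares, replicate 2), and at the right the summed CPM of the feeder fibroblast markers. The 5 genes beside T were picked from the 8 of 17 tested streak genes that were higher without overlap, so both red points are above both blue points by choice, and the feeder sum is at 103 CPM in Rest-/- replicate 1 and at 19.6 to 29.7 CPM in the other libraries.

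The BMP arm, the neighbouring branch of TGF-β signalling that also induces Smad7, was read from a list of 15, of which Bmp2 and Msx1 did not pass the filter. This list too was chosen with earlier results of these data known. None of the 13 tested genes was called in edgeR's quasi-likelihood test, and 1, Id2, had an unadjusted p under 0.05, again beside 6.71% of all tested genes. The median log2 fold change was 0.18, and 6 genes were higher and 0 lower without overlap, where the shares of all tested genes were 16.5% and 15.4%. The Id genes, direct targets of BMP signals that encode inhibitors of bHLH factors, were among these. Id1 was at 108 and 50.3 CPM in WT and at 146 and 151 CPM in Rest-/- libraries, a log2 fold change of 0.91 (SE 0.38). Id2 had a log2 fold change of 0.57 (SE 0.19, adjusted p = 0.719) and Id3 one of 0.64 (SE 0.25, adjusted p = 0.758), both from edgeR's quasi-likelihood test. Smad6, the inhibitory SMAD of the BMP arm, was at 5.36 and 9.37 CPM in WT and at 5.34 and 6.59 CPM in Rest-/- libraries.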

How the data were processed

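The authors extracted total RNA, made indexed TruSeq libraries, aligned the reads using Subread and counted them per gene using featureCounts. Per the labels the build was mm9, and the annotation, tool versions and strand setting are not given in the sources used here. The deposited values are raw counts per Entrez gene, and 368 rows without an identifier or values were left out. From these counts, edgeR 4.0.16 in R 4.3.3 gave TMM factors, the filterByExpr filter and the quasi-likelihood test of genotype in all 4 libraries (default prior count, threshold 0.05, standard error as the log2 fold change over the square root of F). Alternatives were edgeR's exact tests, DESeq2 1.42.0, other scalings, filters and prior count, a replicate block, and each library left out. Positions and exon lengths came from GENCODE M1 (mm9), promoters from RefSeq, and Python 3.11.15 was used for sequence searches. RPKM was computed from CPM and annotated exon length. Named genes of the other lists were up to 3 with the highest and 3 with the lowest log2 fold change among those at 1 CPM or more in the higher genotype and without overlap between genotypes. Cdx1, Chrd, Axin2, Evx1, Inhba, Smad6, Lef1 and the transducer and receptor genes were named outside this rule, after their values were seen. So were the pluripotency genes and the trophectoderm markers. The members and lists were chosen with earlier results of these data known. Biological replicates share 1 line per genotype, so p-values measure the spread between these samples, and counting floors cover counting error alone.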

Additional observations from a re-analysis of the deposited data

How the results depend on the processing

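The number of genes called over the whole table, 9, moved to 53 with all genes of at least 1 count tested, 3 with at least 10 counts in every library, 277 in the tag-wise and 344 in the common-dispersion exact test, 238 in DESeq2, and between 60 and 113 with each library left out in turn. The number of members called, 0, was 1 in each exact test and in DESeq2 (T), and between 0 and 1 with a library left out. For the other primitive streak and mesendoderm genes it was 2, 4 and 2 in the tag-wise exact test, the common-dispersion exact test and DESeq2, and for the other Nodal pathway genes 2 in the exact test with common dispersion. The median log2 fold change of the members lay between -0.10 and 0.16 with a library left out. The sign was the same under every alternative run for T (2.74 to 4.48), Lefty2 and Mixl1. With a library left out it reversed for Nodal (from -0.36 to 0.34), Lefty1 (from -0.81 to 0.22), Tdgf1 (from -0.14 to 0.21), Smad7 (from -0.077 to 0.029) and Eomes (from -0.26 to 0.32), and under no other alternative did a member's sign change. Each such fit holds fewer samples and no longer has both replicate numbers in both genotypes, and the cause of the reversals was not tested.

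With the replicate block, 2621 genes (17% of those tested) were called, among them 2 members, T (adjusted p = 6.04e-05 in edgeR's quasi-likelihood test) and Lefty1 (log2 fold change -0.28, adjusted p = 0.0129), 5 of the other Nodal pathway genes, 6 of the streak genes and 3 of the BMP arm. Differences between replicate numbers in the 2 genotypes had a Pearson's r of 0.81 across genes, but the labels do not say that a number marks a shared batch, so the block was not part of the reported fit. With 2 libraries per genotype an exact permutation test of 1 gene could not go under the threshold.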

Other observations

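Of the 7 primed state markers, none was called in edgeR's quasi-likelihood test, beside 0.0583% of all tested genes. In the same test 1 of them, Lef1, had an unadjusted p under 0.05, beside 6.71% of all tested genes in either direction. Their median log2 fold change was 0.31, with 0.58 between the replicate 1 libraries and -0.023 between the replicate 2 libraries. Lef1, which encodes a TCF/LEF factor, was at 3.75 and 2.91 CPM in WT and at 15.4 and 5.78 CPM in Rest-/- ESCs. The 6 neuroectoderm markers had a median of 0.053, and the 7 tested trophectoderm markers, Elf5 not passing the filter, one of 0.22. In edgeR's quasi-likelihood test no gene of these 2 lists was called, beside 0.0583% of all tested genes. An unadjusted p under 0.05 was seen for 0 neuroectoderm and 1 trophectoderm markers, beside 6.71% of all tested genes in either direction. Inhba, the activin A subunit gene, was at 1.62 and 0.187 CPM in WT and at 6.77 and 0.226 CPM in Rest-/- ESCs, higher in the replicate 1 libraries like the feeder markers.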
